A study of Mus musculus with 8 samples.

Results

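The desmosomal cadherins and plaque proteins were followed through a given list of 10 genes: the cadherins Dsg1a, Dsg1b, Dsg2, Dsg3, Dsc2 and Dsc3 and the plaque genes Dsp, Jup, Pkp1 and Pkp3. All 10 were found among the 55276 rows of the count table, and all 10 passed the filter on low counts, which left 17344 genes to test. The libraries came from the peeled esophageal epithelium of C57BL6 mice aged 14 to 15 weeks, 2 females and 2 males, with no genetic change or drug named in the labels. Live cells were sorted as DAPI-negative and integrin beta-1-positive, and each animal gave 1 library of cells with little Cyto-ID dye (Cyto-ID Low) and 1 of cells with much (Cyto-ID High). Cyto-ID is a dye that gathers in autophagic vesicles, and the series asks how basal cells rich in such vesicles differ from the others. RNA was sequenced in bulk, so a change in the mix of sorted cells and a change in RNA per cell cannot be told apart.

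Desmosomes are buttons of adhesion that tie the intermediate filaments of neighbouring epithelial cells together. Desmogleins (Dsg) and desmocollins (Dsc) are the calcium-dependent cadherins that meet between the cells, plakoglobin (Jup) and plakophilins (Pkp) bind their tails, and desmoplakin (Dsp) links this plaque to keratin. In the epidermis the cadherin isoforms change with the layer: Dsg2 and Dsg3 are known from the basal side, and Dsg1 and Dsc1 from the differentiated layers.

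Library totals were 26285150 to 28599954 counts for the Low fraction and 27486049 to 29301054 for the High fraction. Of all counts, the 10 genes took 0.919% ± 0.0815 in the Low and 2.23% ± 0.140 in the High fraction (SD, n = 4). Although both fractions were gated on integrin beta-1, Itgb1 RNA fell from 370 ± 31.6 to 68.2 ± 18.2 CPM (SD, n = 4), where CPM are counts per 1000000 counts of tested genes in a library, whose size was scaled with TMM factors (trimmed mean of M values). All 8 basal keratinocyte markers fell, with a summed level of 20926 to 24802 CPM among Low libraries and 2722 to 4461 CPM among High ones. In the test described below, 25.3% of all genes fell and 23.4% rose. Of 8 suprabasal markers 7 rose, the other being Crnn at 0.257 to 2.24 CPM, and their sum went from 8264 to 24463 CPM up to 133291 to 231071 CPM. In Low the basal sum was above the suprabasal sum in 3 of 4 libraries but not in Male2 (23528 and 24463 CPM), and in High the suprabasal sum was the higher one in all 4, although the labels call both fractions basal. Among other cell types, no marker list was at 0 throughout: leukocyte sums were 43.1 to 74.5 CPM in Low and 4.89 to 67.7 CPM in High, and fibroblast sums 308 to 479.9 and 36.6 to 456 CPM. Of these lists 1 fibroblast gene, Dcn, fell from 114 ± 35.3 to 15.3 ± 6.54 CPM, and 1 leukocyte gene, Cd207, from 1.13 ± 0.580 to 0.234 ± 0.0761 CPM, both in all 4 animals (log2 fold change -2.87 and -2.24, edgeR adjusted p = 9.15e-05 and 0.00585). Endothelial and muscle sums were at most 24.2 and 40.6 CPM with no gene past the threshold, and the part of these cells in the results was not tested. High Male2 stood apart with the fewest genes detected, 22208 against 24820 to 27395 in the other High libraries. It also had the lowest leukocyte, fibroblast, endothelial and muscle sums, at 4.89, 36.6, 0.977 and 1.23 CPM, where the other High libraries had at least 24.0, 147, 8.05 and 13.3 CPM. Both Female2 libraries carried gastric markers, 19.4 CPM in Low and 117 CPM in High, where the other libraries had 0.513 to 1.11 CPM.

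Of the 10 genes 8 rose in Cyto-ID High, Dsg2 fell and Dsc3 did not pass the threshold, an adjusted p under 0.05 in edgeR's quasi-likelihood test with Benjamini-Hochberg adjustment over all genes. In the same test 23.4% of all genes rose and 25.3% fell, which is 48.7% in either direction. For 9 of the 10 the values of the fractions did not overlap, and the same 9 moved one way in all 4 animals. Of all genes tested 48.6% did not overlap, so at least that share also moved one way in all 4 animals. Over the 10 genes the median log2 fold change was 1.83, beside -0.09 over all tested genes, and single genes ran from -3.72 to 4.20. With both Female2 libraries left out, 8 of the 10 still rose and 1 fell.

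**Figure D1:**
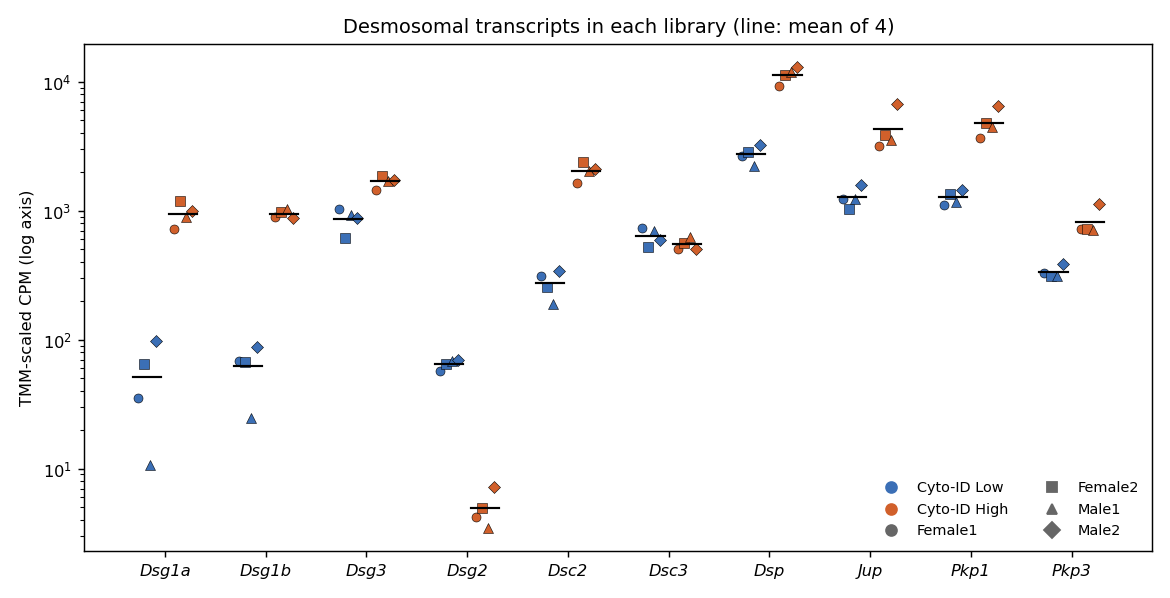
Level of each of the 10 genes in every library, in TMM-scaled CPM on a log axis, coloured by fraction and with 1 symbol per animal. Lines mark the mean of 4 libraries, and the fractions are apart for every gene except Dsc3.

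Both Dsg1 genes of the set rose. Dsg1a, a copy of desmoglein 1, the cadherin of differentiated squamous cells, stood at 35.1, 64.1, 10.7 and 97.0 CPM in the Low libraries of Female1, Female2, Male1 and Male2, and at 716, 1180.3, 899 and 994 CPM in their High libraries. The lowest High library was far above the highest Low one, and the Low libraries differed among themselves far more, relative to their mean, than the High ones. In edgeR this was an 18.3-fold rise, with a log2 difference of 4.20 (SE 0.593) and an adjusted p = 0.000303. Dsg1b, its neighbour and near copy, measured 68.8, 66.7, 24.5 and 87.9 CPM in Low and 892, 981, 1026 and 881 CPM in High, with the animals in the same order as before. Here too Low Male1 was the lowest of all libraries, and the High libraries lay close together. Its log2 fold change was 3.94 (SE 0.364, edgeR adjusted p = 2.77e-05). Dsg1c, which is not among the 10, rose likewise at a much lower level, from 2.97 ± 1.45 to 55.3 ± 10.1 CPM.

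The Dsg1 copies are alike enough for reads to be shared. Of the stretches of 50 bases in the annotated exons, 35.0% of Dsg1a, 48.9% of Dsg1b and 29.6% of Dsg1c also occurred in another gene, against at most 0.73% in the other 8 genes of the set. How the counting treated such reads is not given in the sources used here, and so the split between the copies is uncertain. With the copies summed, the level was 117 ± 63.7 CPM in Low and 1947 ± 237 CPM in High, 16.5-fold more (log2 4.04, SE 0.468, edgeR adjusted p = 0.000118). Low Male2, the Low library with the most Dsg1 RNA, weighed on the size of the change: without it the log2 fold change was 4.65 for the sum and 5.03 for Dsg1a. Without Low Male1, the Low library with the least, it was 3.73 for the sum and 3.82 for Dsg1a.

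Dsg3, the desmoglein of the deeper layers of the epidermis and the antigen of pemphigus vulgaris, was already high in Cyto-ID Low. It measured 1033, 609, 924 and 873 CPM in Low and 1449, 1869, 1697 and 1735 CPM in High, in the order Female1, Female2, Male1 and Male2. Every High library lay above every Low one, but by a much smaller margin than for Dsg1. The log2 fold change was 0.97 (SE 0.200, edgeR adjusted p = 0.00273). Scaling by total counts alone moved the median of all genes by -0.545 on the log2 scale, and Dsg3 then differed by 0.41 and no longer passed (edgeR adjusted p = 0.0673). Relative to the median of all genes its difference was 1.06 with the one scaling and 1.05 with the other.

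Dsg2, the most widely expressed desmoglein and the only one in many simple epithelia, went the other way. Its level was 57.1, 64.4, 68.6 and 69.5 CPM in Low and 4.24, 4.96, 3.47 and 7.15 CPM in High. These values rest on 1849 to 2342 counts per Low library and 91 to 139 per High library, and the fractions were far apart in every animal. The log2 fold change was -3.72 (SE 0.218, edgeR adjusted p = 1.27e-05), which is 13.2-fold lower. Neither Female2 library stood out for Dsg2, and without both of them the log2 fold change was -3.71. It was -4.31 with scaling by total counts alone. An antisense gene, Gm16090, overlaps Dsg2, with 0 to 4 counts per library.

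Of the desmocollins, the partners of desmogleins across the cell border, Dsc2 rose and Dsc3 did not pass. Dsc2 measured 312, 255, 191 and 342 CPM in the Low libraries and 1626, 2400.2, 2033 and 2088 CPM in the High ones. No High library came near the Low range. The log2 fold change was 2.89 (SE 0.238, edgeR adjusted p = 1.83e-05), or 7.41-fold. Dsc3, the desmocollin known from the basal layers and needed for adhesion in stratified epithelium, measured 735, 518, 701 and 589 CPM in Low and 503, 559, 627 and 504 CPM in High. The fractions overlapped, and Female2 was the only animal with more in High. Its log2 fold change was -0.22 (SE 0.173, edgeR adjusted p = 0.344). Under scaling by total counts alone Dsc3 was lower in High by -0.76 (edgeR adjusted p = 0.00582), while relative to the median of all genes it stood at -0.128 there and at -0.125 with the main scaling. Dsc1, the third desmocollin and not among the 10, rose from 31.6, 83.1, 9.01 and 118 CPM to 942, 1521, 1197 and 1281 CPM (log2 fold change 4.35, SE 0.695, edgeR adjusted p = 0.000624).

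Among the Low libraries Dsg1a and Dsc1 were both lowest in Male1, followed by Female1, Female2 and Male2. Dsg1b and Dsc2 were there also lowest in Male1 and highest in Male2, but with Female2 below Female1. The High libraries had another order, with Dsg1a and Dsc1 lowest in Female1 and highest in Female2, and Dsg1b highest in Male1. In Low the suprabasal sum had the order of Dsg1a, with 8264 CPM in Male1, 11944 in Female1, 18787 in Female2 and 24463 in Male2. The part of differentiated cells within the Low sort in these values was not tested. Dsc1, like Dsg1a, changed most in size without Low Male2, to a log2 fold change of 5.32, and it stood at 3.96 without Low Male1.

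All desmosomal cadherin genes of the mouse lie side by side on chromosome 18 (GRCm38, 19960930 to 20604521, GENCODE M21), a stretch of 643.6 kb in which they are the only 9 protein-coding genes. Along it the log2 fold changes were -0.22 for Dsc3, 2.89 for Dsc2, 4.35 for Dsc1, 4.22 for Dsg1c, 4.20 for Dsg1a, 3.94 for Dsg1b, 0.97 for Dsg3 and -3.72 for Dsg2. The genes in the middle thus rose most, and the values became smaller towards either end, Dsg2 at one border being the only one that fell. Dsg4, which lies between Dsg1b and Dsg3, had 0 to 2 counts per library and was not tested. Genes in a row are few and include near copies, so this order is given as a description.

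**Figure D2:**
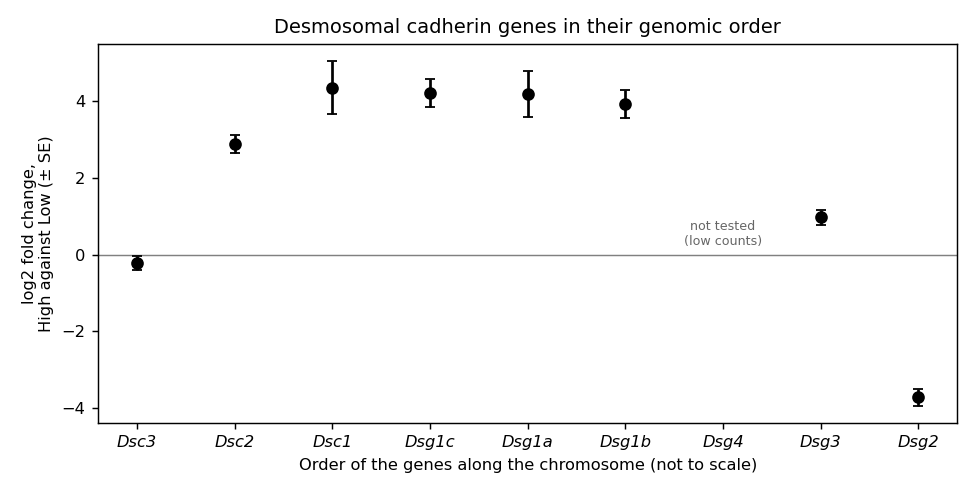
Log2 fold change, High against Low, of the desmosomal cadherin genes in their order along the chromosome, with standard errors. Values climb from Dsc3 at -0.22 to Dsc1 at 4.35 and drop from Dsg1b at 3.94 to Dsg2 at -3.72, and Dsg4 was not tested.

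Because the isoforms moved by different amounts, the make-up of each family differed between the fractions. Levels of different genes were compared as CPM per kilobase of annotated exon. By that measure Dsg3 held 78.5% ± 8.81 of desmoglein RNA in Low and 36.6% ± 0.766 in High (SD, n = 4). The Dsg1 copies held 13.5, 23.4, 5.60 and 23.2% in the Low libraries and 63.5, 63.8, 63.8 and 62.1% in the High ones. Dsg2 made up 5.13% ± 1.03 in Low and 0.0912% ± 0.0291 in High. Desmocollin RNA was mostly Dsc3 in Low, at 65.0% ± 9.73, and mostly Dsc2 in High, at 52.7% ± 0.488. In High, Dsc1 followed with 33.3% ± 1.60 and Dsc3 had 14.0% ± 2.02. For desmogleins and desmocollins the shares varied more between the Low libraries than between the High ones.

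**Figure D3:**
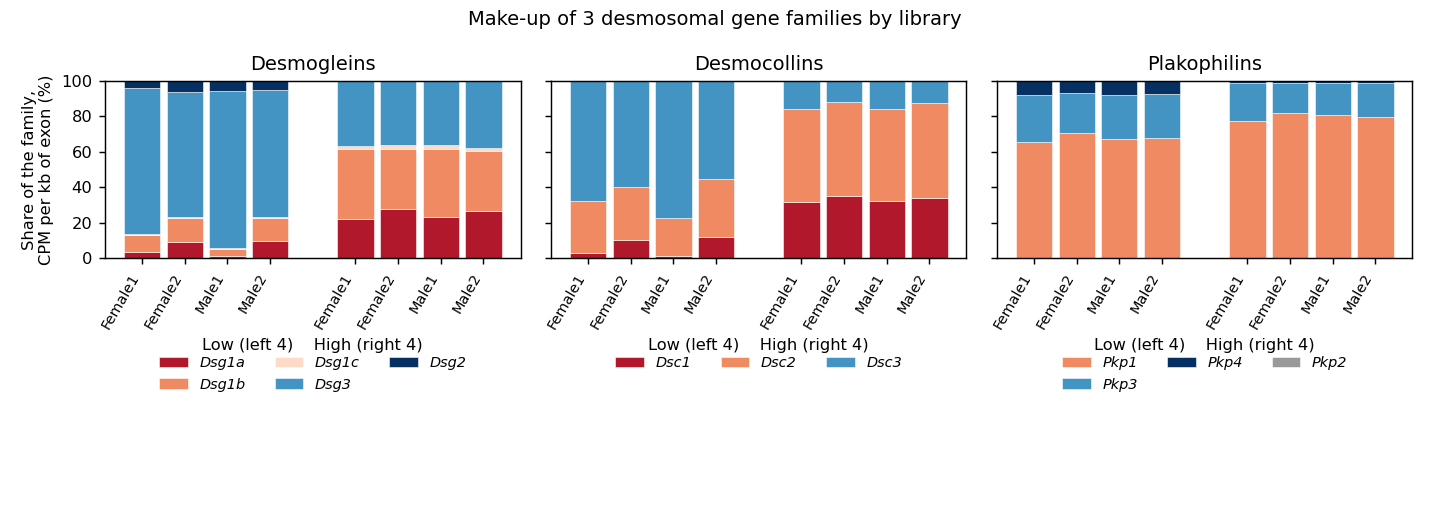
Share of each isoform in the RNA of the desmogleins, desmocollins and plakophilins, in percent of CPM per kb of exon, with 1 bar per library. Dsg3 and Dsc3 fill most of their bars in Low, whereas the Dsg1 copies and Dsc2 are the largest shares in High.

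A ratio of counts within a library does not depend on how libraries are scaled, and 5 such ratios were tested by an exact permutation test of 4 against 4 libraries, two-sided, with adjustment over the 5. The smallest p this design can give is 0.0286. The log2 ratio of the summed Dsg1 copies to Dsg3 was -3.28, -2.18, -4.67 and -2.20 in Low and 0.19, 0.26, 0.22 and 0.15 in High. Its values did not overlap, and the shift of 3.29 ± 1.18 (SD over 4 animals) had an exact p = 0.0286 (adjusted 0.0358). The log2 ratio of Dsg2 to Dsg3 shifted by -4.75 ± 0.576 and that of Dsc2 to Dsc3 by 3.12 ± 0.331, with the same exact p and no overlap. Within animals, sign flips of the paired differences can reach no lower than p = 0.125, and this exact value was found for each of these 3 ratios (adjusted 0.156).

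All 4 plaque genes rose, by 2.44- to 4.11-fold. Dsp lies on chromosome 13 (GRCm38, 38151294 to 38198577, plus strand), Jup on chromosome 11 (100368958 to 100397763, minus strand), Pkp1 on chromosome 1 (135871395 to 135919207, minus strand) and Pkp3 on chromosome 7 (141078218 to 141090510, plus strand). Dsp, the plakin that anchors keratin, measured 2668, 2843, 2232 and 3224 CPM in Low and 9214, 11273, 11817 and 12989 CPM in High. All High libraries were well above the Low ones, and Dsp had the highest mean of the 10 genes per kilobase. Its log2 fold change was 2.04 (SE 0.200, edgeR adjusted p = 3.62e-05), or 4.11-fold. Its antisense neighbour Gm10129, which overlaps it, had 4 to 11 counts per library. Jup, the armadillo protein shared by desmosomes and adherens junctions, measured 1236, 1029, 1235 and 1579 CPM in Low and 3163, 3827, 3539 and 6669 CPM in High. Male2 was the highest library of both fractions. The log2 fold change was 1.74 (SE 0.235, edgeR adjusted p = 0.000225), 1.51 without High Male2 and 1.15 with scaling by total counts alone.

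Dsp and Jup rose from separate chromosomes, and they are the genes of the set with an entry in the promoter table used. Their 250 bases before the RefSeq start (GRCm38.p6) are printed 5′ to 3′ on the gene's strand, with the GC box, the letters GGGCGG on either strand, in capitals. Dsp is at chr13:38151044-38151293 on the plus strand and Jup at chr11:100397791-100398040 on the minus strand.
Dsp: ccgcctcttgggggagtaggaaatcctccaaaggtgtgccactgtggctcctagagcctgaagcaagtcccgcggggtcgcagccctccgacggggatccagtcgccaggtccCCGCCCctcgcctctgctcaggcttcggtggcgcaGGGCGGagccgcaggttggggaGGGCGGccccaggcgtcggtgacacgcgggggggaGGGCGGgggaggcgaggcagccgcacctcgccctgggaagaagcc
Jup: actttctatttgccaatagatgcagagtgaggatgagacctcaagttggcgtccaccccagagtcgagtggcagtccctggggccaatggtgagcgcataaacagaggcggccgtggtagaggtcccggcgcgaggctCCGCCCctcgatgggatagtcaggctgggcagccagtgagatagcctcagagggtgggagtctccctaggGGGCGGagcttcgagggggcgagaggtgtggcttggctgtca
Dsp had 4 GC boxes and a GC content of 72.4%, and Jup had 2 and 62.0%. Of 32851 promoter windows of this length 32.7% held a GC box, and the median GC content was 52.4%. Neither window held TATAAA (12.4% of all windows), TGANTCA of AP-1 (6.7%), AACNGGTT of the grainyhead-like factors (1.8%) or GGGNGTGG of Krüppel-like factors (15.9%), each sought on both strands. A match of letters is a description of these windows and not a site of binding.

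Plakophilins stabilise the plaque and bind desmoplakin. Pkp1, the main plakophilin of differentiated squamous layers, measured 1104, 1351, 1176 and 1436 CPM in Low and 3631, 4769, 4433 and 6424 CPM in High. High Male2 was again the highest, and the fractions were apart. The log2 fold change was 1.92 (SE 0.208, edgeR adjusted p = 6.44e-05). Pkp3, found throughout stratified and simple epithelia, measured 327, 312, 310.4 and 386 CPM in Low and 723, 718, 712 and 1126 CPM in High. In High, 3 libraries were nearly equal and Male2 stood above them. The log2 fold change was 1.29 (SE 0.187, edgeR adjusted p = 0.000355), and 1.12 without High Male2. As unscaled CPM of the library total, High Male2 was nearer the others, at 764 beside 568, 637 and 682.

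Within the plaque, Pkp1 rose more than Pkp3. The log2 ratio of Pkp3 to Pkp1 was -1.92 ± 0.147 in Low and -2.55 ± 0.175 in High, with no overlap. The shift of -0.63 ± 0.061 was nearly equal in the 4 animals (exact permutation p = 0.0286, adjusted 0.0358, and 0.125 and 0.156 by sign flips within animals). The ratio of Dsp to Jup overlapped between the fractions, at 1.12 ± 0.257 and 1.45 ± 0.338. Its shift of 0.34 ± 0.422 had an exact permutation p = 0.171 (adjusted 0.171). Of plakophilin RNA per kilobase, Pkp1 held 67.8% ± 2.14 in Low and 80.1% ± 1.91 in High. Pkp3 held 24.9% ± 1.75 and 19.0% ± 1.88.

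**Figure D4:**
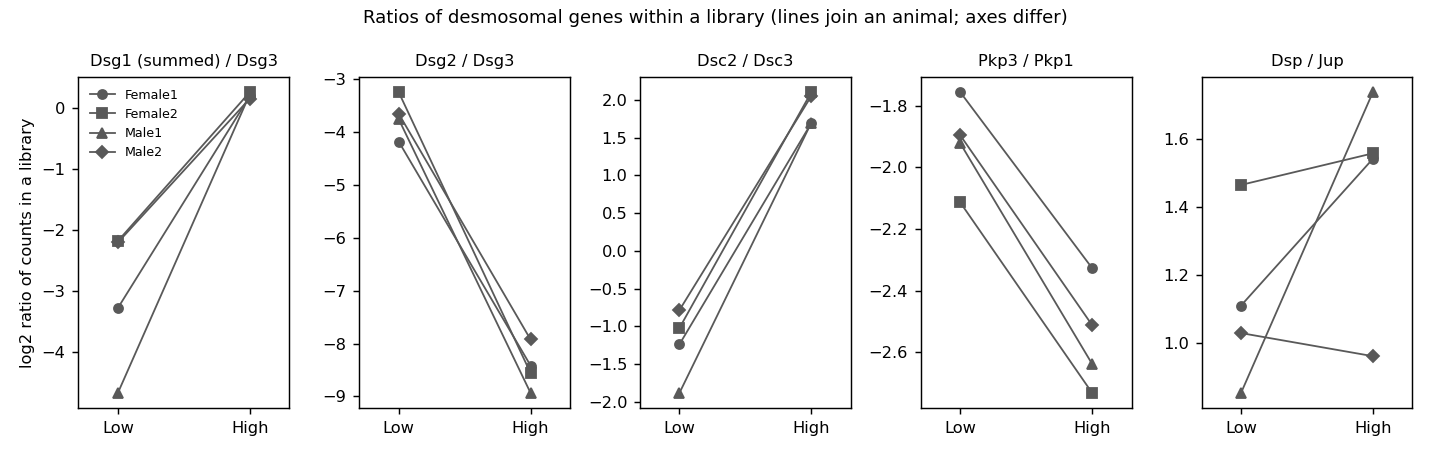
Log2 ratio of counts of gene pairs within each library, with lines joining the Low and High library of an animal and a separate axis for each pair. In 4 of the 5 pairs the lines of all animals run one way and the fractions do not overlap, and Dsp to Jup is the exception.

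Ranked by CPM per kilobase, Dsp, Pkp1 and Jup led in both fractions. In Low the order was Dsp at 284 ± 42.6, Pkp1 at 252 ± 30.5, Jup at 197 ± 35.4, Dsg3 at 123 ± 25.8, Dsc3 at 118 ± 18.6, Pkp3 at 92.3 ± 9.81, Dsc2 at 52.1 ± 12.7, Dsg1b at 15.6 ± 6.74, Dsg1a at 9.10 ± 6.55 and Dsg2 at 7.85 ± 0.683. Neighbours in this order overlapped over the libraries except Jup with Dsg3, Pkp3 with Dsc2 and Dsc2 with Dsg1b. In High the order was Dsp at 1172 ± 163, Pkp1 at 958 ± 234, Jup at 668 ± 249, Dsc2 at 386 ± 60.2, Dsg3 at 242 ± 25.1, Dsg1b at 238 ± 17.7, Pkp3 at 227 ± 56.5, Dsg1a at 167 ± 34.0, Dsc3 at 101 ± 10.8 and Dsg2 at 0.600 ± 0.192. Here the breaks without overlap were Jup with Dsc2, Dsc2 with Dsg3, Dsg1a with Dsc3 and Dsc3 with Dsg2. Among 17048 tested genes with a length, Dsp moved from place 225 to 58 and Dsg2 from 5537 to 13091.

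Beyond the 10, the other desmosome genes held 8 tested genes, of which 6 rose, Pkp4 fell and Pkp2 did not pass, where 23.4% of all genes rose and 25.3% fell. Their median log2 fold change was 2.47. The cornified-envelope plakins periplakin (Ppl) and envoplakin (Evpl) rose from 357 ± 114 to 3409 ± 741 CPM and from 391 ± 99.2 to 3313 ± 588 CPM, with log2 fold changes of 3.25 and 3.07 (SE 0.297 and 0.251). Perp, a membrane protein of desmosomes and a target of p63, rose from 1934 ± 296 to 5374 ± 1076 CPM, and Cdsn, which codes for corneodesmosin, from 19.1 ± 5.45 to 68.6 ± 16.1 CPM. Pkp4, a plakophilin relative also found in adherens junctions, fell from 154 ± 12.9 to 61.5 ± 12.4 CPM (log2 fold change -1.33, SE 0.154, edgeR adjusted p = 9.24e-05). Pkp2, the plakophilin of heart and simple epithelia, had 5 to 19 counts per library and a log2 difference of 0.05 (SE 0.479, edgeR adjusted p = 0.945), whose sign depended on the libraries used.

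Of 12 genes known to act on desmosomes, 5 rose, 3 fell and 4 did not pass, with a median log2 fold change of 0.30, beside the same 23.4% and 25.3% of all genes. Grhl1, a transcription factor known to bind the desmoglein 1 promoter, rose from 65.1 ± 16.9 to 515 ± 145 CPM (log2 fold change 2.98, SE 0.276, edgeR adjusted p = 2.79e-05). Zdhhc5, a palmitoyltransferase linked to desmosomal adhesion, rose by 1.51, and Atp2a2, the calcium pump mutated in Darier disease, by 0.84 on the log2 scale. Trp63, the p63 transcription factor of basal cells, fell by 2.06, and Prmt1, an arginine methyltransferase that acts on desmoplakin, fell by 0.945. Prkca, the kinase that loosens desmosomal adhesion, fell by 0.447, with an edgeR adjusted p of 0.0234, and without High Female1 or High Male1 it did not pass (adjusted p 0.0657 and 0.0806). Under scaling by total counts alone Atp2a2 did not pass either (0.28, edgeR adjusted p = 0.086). Gsk3b and Atp2c1, which are among the 5 that rose, had log2 fold changes of 0.42 and 0.50. That scaling moved the median of all genes by -0.545, and the calls of Gsk3b and Atp2c1 under it are not given here.

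Genes of other junctions and the keratins were counted in the same way, and their counts too stand beside 23.4% of all genes that rose and 25.3% that fell. Of 6 hemidesmosome genes, which fix basal cells to the matrix, 5 fell and 0 rose, and Cd151 at 0.944-fold did not pass. Col17a1, Itgb4 and Dst had log2 fold changes of -3.86, -3.62 and -3.54. Of 9 adherens junction genes 5 rose, 1 fell and 3 did not pass, with a median of 0.58. Cdh1 and Ctnnd1, which are among the 5, rose by only 0.68 and 0.58. Scaling by total counts alone moved the median of all genes by -0.545, and the calls of Cdh1 and Ctnnd1 under it are not given here. Nectin4 rose by 3.03, Afdn, the afadin scaffold of nectins, by 2.19, and Nectin1 by 0.82 (0.24 and not passed under scaling by total counts, edgeR adjusted p = 0.137), while Cdh3, the P-cadherin of basal cells, fell by 2.55. Of 8 keratins, the filaments to which desmosomes attach, 4 rose, 3 fell and Krt6a did not pass. Krt78, Krt4 and Krt13 rose by 3.88, 3.75 and 3.08 on the log2 scale and Krt16 by 1.00, while Krt5, Krt14 and Krt15 fell by 3.38, 2.11 and 2.11. Krt5, of the basal layer, went from 8711 ± 807 to 838 ± 305 CPM, and Krt13, of the suprabasal layers, from 7776 ± 2882 to 65729 ± 17542 CPM.

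**Figure D5:**
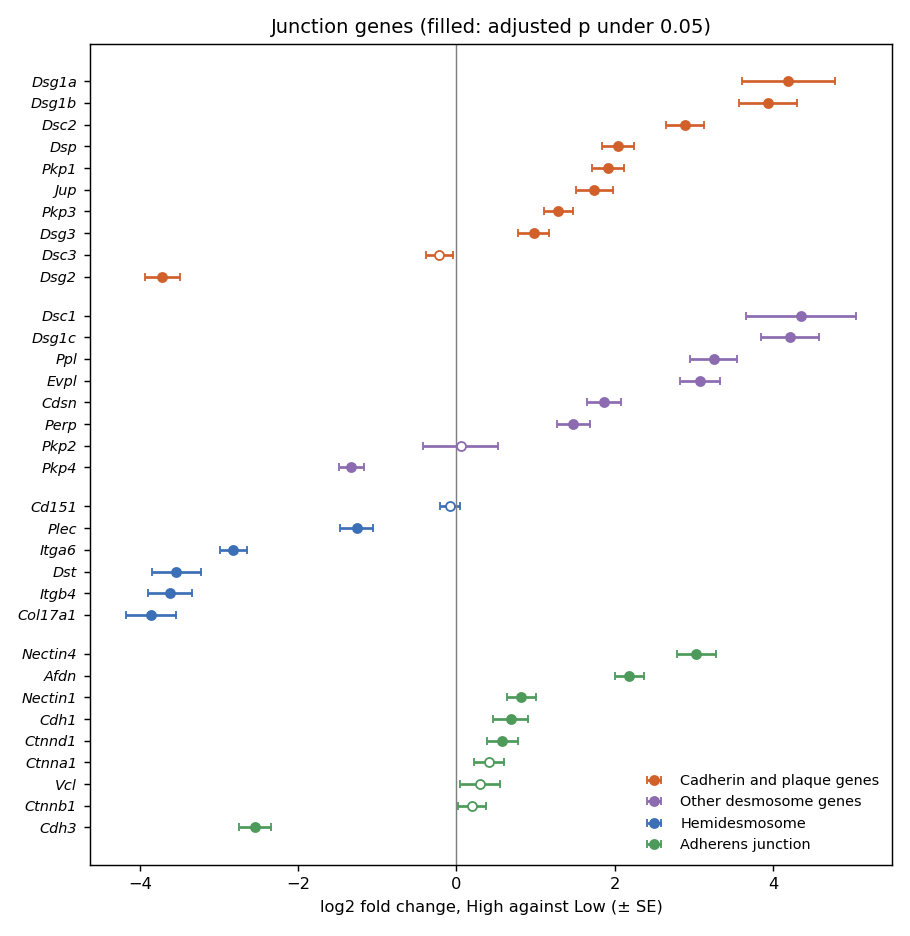
Log2 fold changes with standard errors, High against Low, for the 10 genes and the other desmosome, hemidesmosome and adherens junction genes, filled where the edgeR adjusted p was under 0.05. Desmosome genes lie mostly to the right of 0 and hemidesmosome genes to the left, with Dsg2 and Pkp4 the desmosome genes that fell.

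Both sexes were represented by 2 animals each. The difference between fractions was tested for dependence on sex with an interaction term. No gene passed in edgeR (0 of 17344, or 0%), and 19 had an unadjusted p under 0.05, with 0 of the 10 genes among them. Evenly spread p-values would put a share of 0.05 of all genes there, which is far more than 19. The p-values of this test thus ran too high, and they cannot show that sex made no difference. For the 10 genes the male minus female difference in log2 fold change lay between -0.122 and 0.295 (SE 0.383 to 1.118, unadjusted edgeR p 0.496 to 0.981). Averaged over the 2 animals of a sex instead, the within-animal log2 differences were 4.28 in females and 4.87 in males for Dsg1a. They were 3.79 and 4.36 for Dsg1b and 1.89 and 2.21 for Dsp. This puts the male minus female difference of Dsg1a, Dsg1b and Dsp outside that range. For Dsg1a the sign differed too, as the fitted value was -0.122. A sex difference within these errors was not detectable.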

How the data were processed

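RNA of 2 sorted fractions of esophageal epithelial cells from 4 mice was sequenced in bulk, 4 libraries per fraction. The table that the authors deposited holds raw counts by gene symbol, whole numbers that sum to 26285150 to 29301054 per library. STAR 2.7.3, DESeq2 and GRCm38 are named per the submitters' processing notes, without their roles. The counting tool, annotation, strandedness and any use of molecular identifiers are not given in the sources used here. Each SD covers counting error as well as the spread between animals.

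Libraries were grouped by the labelled fraction. In R 4.3.3, edgeR 4.0.16 (filterByExpr, TMM, glmQLFit and glmQLFTest, two-sided, threshold 0.05 after Benjamini-Hochberg adjustment) was fitted to all 8 libraries with sex as covariate. Standard errors were derived from the fold change and F. Both fractions of an animal carry its name, and log2 CPM deviations (prior count 2) correlated at 0.44, 0.32, 0 and 0.28 within Female1, Female2, Male1 and Male2, and at -0.37 to 0.35 between animals. Alternatives were RLE factors, total counts only, no filter, at least 10 counts in every library, DESeq2 1.42.0, limma-voom (limma 3.58.1), no covariate, the animal as replicate block, and each library left out. Leaving out both Female2 libraries was added after seeing the data. Lengths, positions and shared sequence came from GENCODE M21. Scripts were tested on simulated data.

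The 10 genes and all lists were chosen with earlier results of these data known. Named were the 10 genes, all other desmosome genes, and of each further list up to 3 per direction with the largest passing change, plus Itgb1. Crnn, Krt6a, Krt16, Dcn, Cd207, Gm16090, Gm10129, Cd151, Cdh1, Ctnnd1, Gsk3b and Atp2c1 were named after their values were seen.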

Additional observations from a re-analysis of the deposited data

Results flagged for a closer look

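Among 100 groups of 4 libraries, 5 held a library whose gap to the nearest other exceeded the critical share of the group's range; chance gives about 1 in 20. Pkp3 in Cyto-ID High stood at 1126 CPM in Male2 beside 712 to 723 CPM. Dst in Cyto-ID High was 209 CPM in the same library beside 92.7 to 105 CPM. Col17a1 in Cyto-ID Low was 1581 CPM in Female1, below the 2063 to 2101 CPM of the others. Summed gastric markers in Female2 came to 19.4 CPM in Cyto-ID Low, beside 0.513 to 1.11 CPM, and to 117 CPM in Cyto-ID High, beside 0.839 to 1.03 CPM. Without both Female2 libraries the calls of the 10 genes were 8 higher and 1 lower, as with them.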

How the results depend on the processing

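The count of genes that differed was 8440 and ran from 8066 to 10708 over the other settings of the fit, from 7269 to 8106 with single libraries left out, and was 7570 without both Female2 libraries. Of the 10 genes 8 rose under all settings except scaling by total counts, which gave 7 higher and 2 lower, since Dsg3 lost its call and Dsc3 gained one. That scaling also turned the split of all calls to 2194 higher and 8514 lower, from 4055 and 4385. It moved the log2 fold changes of Grhl1 to 2.39, Krt4 to 3.16, Krt13 to 2.48, Krt15 to -2.71, Col17a1 to -4.45 and Dst to -4.15. Without Low Male2 the log2 fold change of Krt78 was 4.515. The replicate block by animal gave 9336 genes and changed no call of the 10 genes or of the other desmosome genes. As sign flips within animals, the block left the ratio shifts at 3.29 (Dsg1 copies to Dsg3), -4.75 (Dsg2 to Dsg3), 3.12 (Dsc2 to Dsc3) and -0.63 (Pkp3 to Pkp1), each with adjusted p = 0.156, a design too small to pass. With single libraries left out, Pkp3 to Pkp1 ran from -0.705 to -0.57. Pkp2, with few counts, turned to -0.533 under total counts, to -0.119, -0.221 and -0.207 without Low Female1, Low Female2 and High Female2, and to -0.365 without both Female2 libraries, the range with single libraries left out being -0.221 to 0.382. It gave no value with at least 10 counts in every library. Prkca lost its call with no filter (-0.487, edgeR adjusted p = 0.0653). The cause of these changes was not tested. Few counts limit Pkp2 and Dsg4, and with 2 animals per sex the interaction test is coarse.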
